A study of Mus musculus with 10 samples.

Results

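The genes described are 9 that carry out synaptic vesicle release in neurons, namely Snap25, Stx1a, Vamp1, Vamp2, Syt1, Syt2, Syn1, Slc17a6 and Slc17a7. They were taken by symbol through the Entrez IDs of the deposited count table, and all 9 were found among its 27179 gene rows. The libraries hold bulk RNA of the cochlea on postnatal day 8, 5 of them from Pknox2-/- mice (knockout) and 5 from Pknox2+/+ mice (wild type). Both groups share tissue and age. The sources used here give no strain, sex, number of pups per library or extent of the deletion. The series text calls the samples independent and biological.

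At a chemical synapse a vesicle fuses with the terminal membrane when the SNARE proteins of vesicle and target membrane zip together. Calcium sensors of the synaptotagmin family trigger the fusion, synapsins tether the reserve of vesicles, and vesicular transporters load them with transmitter. In the cochlea the spiral ganglion neurons use this machinery at their terminals in the brainstem, and their somata and peripheral fibres lie inside the organ. Inner hair cells release glutamate at ribbon synapses with otoferlin and the carrier encoded by Slc17a8, and efferent fibres from the brainstem also end in the organ.

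None of the 9 genes was called between the groups by edgeR's quasi-likelihood test at an adjusted p under 0.05, where 0.0187% of the 16018 tested genes were called in either direction, 0.0125% lower and 0.00624% higher. Of the 9, 7 had lower levels in knockout libraries and Stx1a and Vamp2 did not. The spread within the knockout group was wide, since knockout 2, 3 and 5 held the lowest levels of Snap25, Syt1, Syt2, Vamp1 and Slc17a7, while knockout 1 and 4 lay nearer to the wild-type range or inside it. At an unadjusted p under 0.05 in the same test 5 genes were lower (Snap25, Syt2, Vamp1, Slc17a6 and Slc17a7), where 8.66% of all tested genes were, and Stx1a was higher, where 11.4% were (20.1% in either direction). For none of the 9 were the scaled counts of all knockout libraries below, or above, those of all wild-type libraries, where 1.21% of tested genes were below and 1.15% above. In bulk tissue fewer neurons and less RNA per neuron cannot be told apart.

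Library totals ran from 16943131 to 17592580 counts in knockout and from 16642525 to 19394072 counts in wild type. Knockout 2, 3 and 5 stood apart, with scores of 41.2 to 73.5 on the first principal component (56.6% of the variance) against -42.3 to 2.77 in the other 7 libraries. Ribosomal protein genes took 5.22% to 6.72% of their counts and 2.57% to 4.39% in the other 7. Summed Y-linked expression, in counts scaled to a common library size by TMM (trimmed mean of M values) and written as CPM, was 0 to 11.3 CPM in knockout 2 to 5 and 209 CPM in knockout 1, against 102 to 225 CPM in wild type, so the makeup by sex also differs between the groups. Pknox2 itself averaged 21.1 ± 4.38 CPM in knockout and 19.9 ± 1.96 CPM in wild type (SD, n = 5 each), and as the deleted part is unknown this does not check the labels. The part of RNA quality, sex or these libraries in the values below was not tested, and estimates without knockout 2, 3 and 5, or with the first component or Y-linked expression in the model, stand beside the results. Y-linked expression nearly followed the group, with knockout 1 as the exception. A model that holds it can hardly separate it from the group, and its SE was wider for every member.

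Promoter sequences, as the 250 bases before the annotated start, were found in RefSeq (GRCm38.p6) for 7 of the 9 genes, with 10 starts in all. They are shown for the 3 starts that held a searched motif, because PKNOX2 belongs to the TALE homeodomain proteins and because neuronal genes are known targets of CREB and of the repressor that binds the RE1 element. Capitals mark the matches, which did not overlap each other. Syn1 lies on the minus strand at chrX:20920919-20921168, Slc17a6 on the plus strand at chr7:51621580-51621829 and Syt1 on the minus strand at chr10:109009112-109009361.
Syn1: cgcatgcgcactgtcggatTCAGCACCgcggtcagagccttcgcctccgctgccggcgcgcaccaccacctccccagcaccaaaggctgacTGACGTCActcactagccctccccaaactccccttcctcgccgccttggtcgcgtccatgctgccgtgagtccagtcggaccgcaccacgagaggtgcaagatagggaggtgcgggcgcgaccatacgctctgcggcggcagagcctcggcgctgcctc
Slc17a6: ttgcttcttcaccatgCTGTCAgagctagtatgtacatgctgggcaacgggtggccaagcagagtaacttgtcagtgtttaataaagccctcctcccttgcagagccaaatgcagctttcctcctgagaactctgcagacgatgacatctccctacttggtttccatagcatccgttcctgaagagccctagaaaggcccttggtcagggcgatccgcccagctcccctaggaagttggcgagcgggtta
Syt1: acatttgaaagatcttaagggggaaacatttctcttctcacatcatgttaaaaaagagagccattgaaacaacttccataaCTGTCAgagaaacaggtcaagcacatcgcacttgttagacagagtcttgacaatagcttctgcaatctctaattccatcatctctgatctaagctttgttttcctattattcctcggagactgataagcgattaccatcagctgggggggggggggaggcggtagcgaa
The Syn1 sequence holds the left part of the RE1 element, TCAGCACC, and a cAMP response element, TGACGTCA. The Slc17a6 and Syt1 sequences each hold the TALE core TGACAG on the opposite strand, and each of these genes has another annotated start without it. Both strands were searched. The TALE core was present in 2 of the 10 starts and in 15.9% of 32851 promoters of the same length. The cAMP response element was present in 1 of the 10 and in 1.55% of all, and the left part of RE1 in 1 of the 10 and in 1.32% of all. The right part, GGACAGCG, was in none of the 10 and in 0.992% of all. A match describes the letters only.

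**Figure D1:**
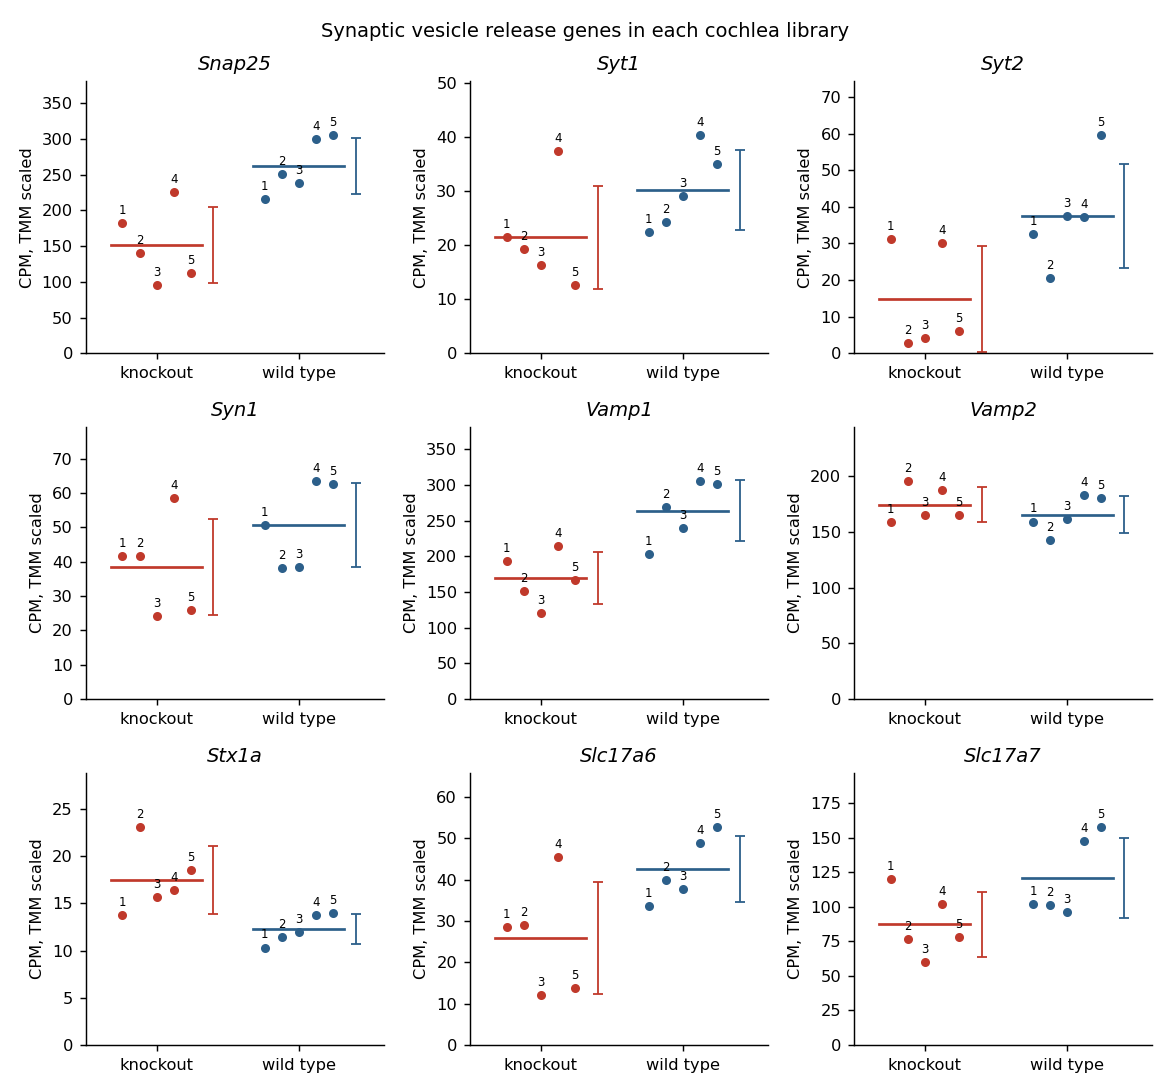
Levels of the 9 release genes in each library, as CPM after TMM scaling. Points are libraries numbered by replicate, horizontal lines are group means and bars are 1 SD over 5 libraries. Snap25 lies between 95.3 and 226 CPM in knockout and between 216 and 305 CPM in wild type, while the groups lie over each other for Vamp2.

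Levels are given in CPM after TMM scaling, in the order of replicates 1 to 5, and fold changes are log2, knockout over wild type, from edgeR's fit to all tested genes. The target-membrane SNARE gene Snap25 (Entrez 20614, chr2:136713439-136782428, GRCm38) had 182, 141, 95.3, 226 and 112 CPM in knockout libraries, against 216, 250.3, 238, 300.3 and 305 CPM in wild-type libraries. Knockout 1, 2, 3 and 5 lay below every wild-type library and knockout 4 inside their range. edgeR's estimate of the log2 difference was -0.79 (SE 0.213, adjusted p = 0.210). It was -0.36 without knockout 2, 3 and 5 and -0.49 once the first component entered the model.

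Stx1a (Entrez 20907, chr5:135023482-135051100), which encodes the syntaxin that pairs with SNAP25, ran the other way. It had 13.7, 23.1, 15.7, 16.4 and 18.5 CPM in knockout libraries, against 10.3, 11.4, 11.95, 13.8 and 13.95 CPM in wild-type libraries. Knockout 2 to 5 lay above every wild-type library and knockout 1 just below the highest 2. In edgeR's fit the log2 difference was 0.51 (SE 0.156, adjusted p = 0.214), and 0.29 without knockout 2, 3 and 5. Adding Y-linked expression, hardly separable from the group here, gave 0.10 (SE 0.195), and adding the first component gave 0.29.

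Vamp1 (Entrez 22317, chr6:125215581-125222306) encodes synaptobrevin 1, a vesicle SNARE used in the brainstem, spinal cord and motor endings. Its levels were 194, 151, 121, 215 and 167 CPM in knockout libraries, against 204, 269, 241, 305 and 302 CPM in wild-type libraries. Only knockout 4 reached the wild-type range. Knockout over wild type came to -0.64 on the log2 scale (SE 0.162, adjusted p = 0.208, edgeR) and -0.37 without knockout 2, 3 and 5.

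Vamp2 (Entrez 22318, chr11:69088528-69092381) encodes synaptobrevin 2, the main vesicle SNARE of the forebrain, which secretory cells outside the nervous system also use. It had 159, 196, 165, 188 and 166 CPM in knockout libraries, against 159, 143, 162, 183 and 181 CPM in wild-type libraries. The groups overlapped throughout, and the coefficient of variation was 9.11% in knockout and 10.1% in wild type. edgeR's estimate of the log2 difference was 0.08 (SE 0.100, adjusted p = 0.625), and its sign changed to -0.07 after adding Y-linked expression to the model and to -0.00072 with the length and GC trend of each library removed.

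Of the calcium sensors, Syt1 (Entrez 20979, chr10:108497650-109010980) is the fast sensor of most forebrain synapses. It had 21.6, 19.3, 16.3, 37.5 and 12.6 CPM in knockout libraries, against 22.5, 24.2, 29.2, 40.3 and 35.1 CPM in wild-type libraries. Knockout 4 was the second highest of all 10 libraries, and the other knockouts were below the wild-type range. In edgeR's fit the log2 difference was -0.50 (SE 0.266, adjusted p = 0.284) and -0.04 without knockout 2, 3 and 5. Leaving out knockout 4 gave -0.80. With the first component in the model it was -0.14, and removing the trend with length and GC gave -0.29.

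Syt2 (Entrez 20980, chr1:134646534-134753149), the fast sensor of auditory brainstem and neuromuscular synapses, varied most. It had 31.2, 2.94, 4.14, 30.1 and 6.02 CPM in knockout libraries, against 32.6, 20.5, 37.5, 37.2 and 59.5 CPM in wild-type libraries. Knockout 2, 3 and 5 rest on 48, 68 and 100 counts, and knockout 1 and 4 on 551 and 531 counts, inside the wild-type span of 355 to 1053 counts. Knockout over wild type came to -1.33 on the log2 scale (SE 0.599, adjusted p = 0.244, edgeR), -0.28 once the first component entered the model and -0.29 without knockout 2, 3 and 5. Adding Y-linked expression gave -0.49 (SE 0.843). The highest knockout library was 10.6-fold above the lowest, against 2.90-fold in wild type. Among 11324 genes averaging at least 10 CPM in wild type, 0.521% had a range in knockout as wide, and the median gene had 1.52-fold.

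The low Syt2 levels went with other measures that separate knockout 2, 3 and 5. Over the 10 libraries its log2 CPM had r = -0.98 and rho = -0.90 with the first component, the other 8 genes having r from -0.80 to 0.76, and the component was computed from the same libraries. Its longest coding transcript, at 6879 bases, exceeds that of 90.8% of tested genes with a known length. With the length and GC trend of each library removed its log2 difference became -1.20 (edgeR, SE 0.465, adjusted p = 0.163).

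Syn1 (Entrez 20964, chrX:20860511-20920918) encodes synapsin I, the phosphoprotein that tethers vesicles. It had 41.7, 41.7, 24.3, 58.7 and 26.0 CPM in knockout libraries, against 50.8, 38.2, 38.5, 63.5 and 62.7 CPM in wild-type libraries. Only knockout 3 and 5 were below the wild-type range. edgeR's estimate of the log2 difference was -0.40 (SE 0.243, adjusted p = 0.323) and -0.01 without knockout 2, 3 and 5, or -0.11 given the first component. Leaving out knockout 4 gave -0.61. Syn1 shares 9 exonic bases with Araf on the other strand, and the exons of the other 8 genes share none with another gene.

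The transporter genes encode the carriers that fill vesicles with glutamate. Slc17a7 (VGLUT1, Entrez 72961, chr7:45163921-45176139) had 119.9, 76.6, 60.1, 102 and 78.0 CPM in knockout libraries, against 102, 102, 96.0, 147 and 158 CPM in wild-type libraries. Knockout 2, 3 and 5 lay below every wild-type library and knockout 1 and 4 inside the range. In edgeR's fit the log2 difference was -0.47 (SE 0.200, adjusted p = 0.237) and -0.13 without knockout 2, 3 and 5. The value was -0.16 given the first component and -0.24 given Y-linked expression.

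Slc17a6 (VGLUT2, Entrez 140919, chr7:51621830-51671126) had 28.6, 29.1, 12.1, 45.4 and 13.8 CPM in knockout libraries, against 33.5, 39.9, 37.7, 48.8 and 52.7 CPM in wild-type libraries. Only knockout 4 reached the wild-type range. Knockout over wild type came to -0.72 on the log2 scale (SE 0.311, adjusted p = 0.240, edgeR) and -0.20 without knockout 2, 3 and 5, or -0.40 given the first component. The coefficient of variation was 52.6% in knockout and 18.8% in wild type.

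**Figure D2:**
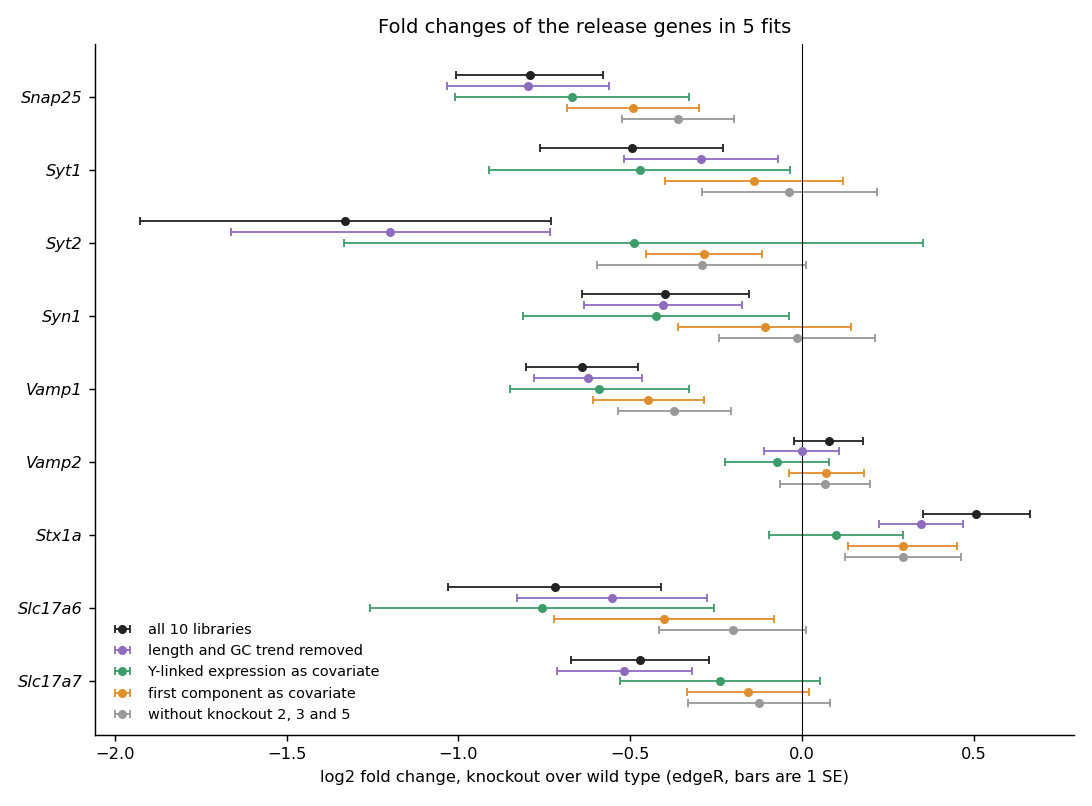
Log2 fold changes (x axis, knockout over wild type, edgeR) of the 9 genes in 5 fits, with bars of 1 SE. Syt2 moves from -1.33 with all 10 libraries to -0.29 without knockout 2, 3 and 5, and Stx1a is above 0 in every fit shown.

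Other tools called some of the genes. DESeq2 called Snap25 (log2 fold change -0.79, adjusted p = 0.0399) and Vamp1 (-0.64, adjusted p = 0.0343) lower, where it called 0.814% of 15962 genes lower and 2.02% in either direction. Voom with sample quality weights, from limma, called 8 of the 9, with Stx1a higher and 7 lower, and Vamp2 was not called. It also called 20.5% of all tested genes lower and 18.6% higher, 39.1% in all. Leaving out knockout 1 brought edgeR's adjusted p to 0.0562 for Vamp1, 0.0578 for Snap25 and 0.0580 for Stx1a, and no removal of 1 library let a member pass. Over the whole table that fit called 166 genes, against 3 with all libraries. Knockout 1 was the only knockout library with Y-linked expression inside the wild-type range, so without it this expression followed the group.

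Levels of different genes were compared per kilobase of the longest coding transcript, as CPM per kb. In knockout libraries Vamp2 was highest at 79.2 ± 7.22 CPM per kb, followed by Snap25 at 71.4 ± 25.1, Vamp1 at 56.3 ± 12.1 and Slc17a7 at 30.0 ± 8.08 (SD, n = 5). In wild type the order was Snap25 at 124 ± 18.4 CPM per kb, Vamp1 at 87.8 ± 14.2, Vamp2 at 75.1 ± 7.56 and Slc17a7 at 41.5 ± 10.004 (SD, n = 5). Then came Syn1 at 11.8 CPM per kb in knockout and 15.6 in wild type, with Stx1a, Slc17a6, Syt1 and Syt2 between 2.16 and 8.08 in knockout and between 5.45 and 10.3 in wild type. In knockout the ranges of neighbours in this order overlapped except between Slc17a7 and Syn1. In wild type Snap25 stood clear of Vamp1, Vamp2 of Slc17a7 and Slc17a7 of Syn1, and the other neighbours overlapped. Per coding length Vamp1 came first in wild type and Stx1a last, so the order within the upper 3 and the lower 5 depends on the length used.

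Ratios between related genes within a library do not depend on scaling, and 5 pairs were compared by a two-sided exact permutation test over libraries, adjusted over the 5, of which 4 are reported here. The smallest p that 5 against 5 allows is 0.00794. The pairs were chosen with earlier results of these data known, which the adjustment does not cover. The ratio of Vamp1 to Vamp2 counts was 1.21, 0.773, 0.732, 1.14 and 1.01 in knockout libraries, against 1.28, 1.89, 1.49, 1.67 and 1.67 in wild-type libraries. All 5 knockout libraries lay below all 5 wild-type libraries. The log2 ratio averaged -0.07 ± 0.330 in knockout and 0.66 ± 0.211 in wild type (SD, n = 5 each, exact p = 0.00794, adjusted p = 0.0265). The adjusted p was 0.0794 without wild type 2, 4 or 5. Without knockout 2, 3 and 5 the difference was -0.43, in place of -0.73, and both remaining knockout libraries lay below all wild-type libraries. The smallest exact p that 2 against 5 allows is 0.0476, which this ratio had and which the adjustment took to 0.238.

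Snap25 was set against Snap23, the homologue used by most cells outside the nervous system, which had 41.7 ± 6.504 CPM in knockout and 46.0 ± 5.80 CPM in wild type (SD, n = 5 each). The ratio of Snap25 to Snap23 was 3.66, 4.21, 2.24, 4.94 and 3.01 in knockout libraries, against 4.97, 5.39, 4.26, 7.25 and 7.07 in wild-type libraries. Knockout 1, 2, 3 and 5 lay below all wild-type libraries. The log2 ratio averaged 1.80 ± 0.444 in knockout and 2.502 ± 0.332 in wild type (SD, n = 5 each, exact p = 0.0159, adjusted p = 0.0265). The call ended on leaving out any of knockout 2, 3 and 5 or wild type 1, 2, 4 and 5 (adjusted p = 0.0529 to 0.0992).

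The ratios of the synaptotagmin and the transporter pair did not pass. The ratio of Syt2 to Syt1 was 1.44, 0.155, 0.257, 0.804 and 0.479 in knockout libraries, against 1.45, 0.846, 1.29, 0.924 and 1.69 in wild-type libraries. Knockout 2 to 5 lay below the wild-type range. The log2 ratio averaged -1.10 ± 1.28 in knockout and 0.26 ± 0.427 in wild type (SD, n = 5 each, exact p = 0.0476, adjusted p = 0.0595). The difference was -1.36, and -0.15 without knockout 2, 3 and 5. The ratio passed on leaving out knockout 1 (adjusted p = 0.0132, exact test) or knockout 4 (adjusted p = 0.0496, exact test).

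The ratio of Slc17a7 to Slc17a6 was 4.19, 2.63, 4.96, 2.24 and 5.62 in knockout libraries, against 3.05, 2.55, 2.54, 3.02 and 2.99 in wild-type libraries. Knockout 1, 3 and 5 lay above and knockout 4 below the wild-type range. The log2 ratio averaged 1.89 ± 0.579 in knockout and 1.496 ± 0.135 in wild type (SD, n = 5 each, exact p = 0.159, adjusted p = 0.159). The difference was 0.39, against 0.24 without knockout 5 and 0.12 without knockout 2, 3 and 5. The wild-type libraries kept close together and the knockout libraries did not.

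**Figure D3:**
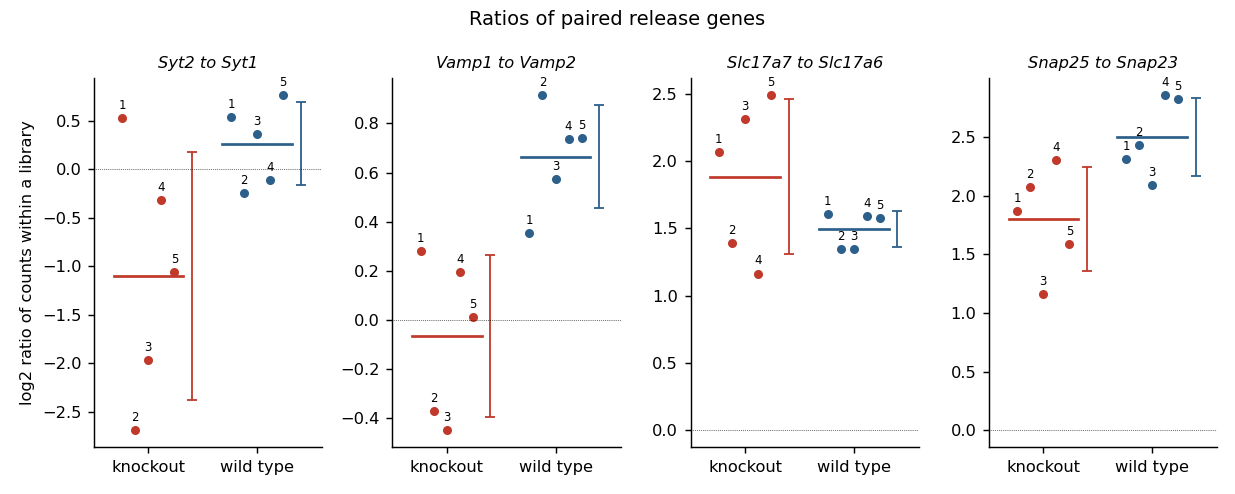
Log2 ratios of counts within a library for 4 pairs of genes (y axes differ). Points are libraries numbered by replicate, lines are means and bars 1 SD over 5 libraries. Vamp1 to Vamp2 is the pair in which all knockout libraries lie below all wild-type libraries.

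Over the 10 libraries the 36 pairs of the 9 genes had a median r of 0.77 (range -0.72 to 0.96), and over the 7 libraries other than knockout 2, 3 and 5 the median was 0.60 (range 0.09 to 0.96). Split by the direction of their fold changes, the 7 genes other than Vamp2 and Stx1a made 21 pairs. Over the 10 libraries these had a median r of 0.86 (range 0.72 to 0.96) and a median rho of 0.78. Over the 7 libraries their median r was 0.62 (range 0.37 to 0.96). Snap25 and Vamp1 kept an r of 0.96 in both sets. Stx1a had r from -0.72 to -0.25 with the 7 genes over 10 libraries and 0.09 to 0.66 over the 7 libraries, so the negative sign of these correlations rests on knockout 2, 3 and 5. Vamp2 had a median r of 0.11 (range -0.15 to 0.43) with the 7 genes over 10 libraries and 0.64 (range 0.24 to 0.88) over the 7 libraries. These are descriptions over libraries that share their scaling. The split used fold changes of the same libraries, so part of the correlations within the 7 genes and with Stx1a is built in by it.

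Among all tested genes outside the 9, the 8 most like the mean of their standardised profiles were Syn2, Cntn2, Gprasp1, Kif5c, Map6, Rab6b, Nrxn2 and Rph3a. Pearson's r over 10 libraries ran from 0.973 for Rph3a to 0.984 for Syn2, and rho from 0.903 to 0.988. Without the 2 libraries farthest from the median of the profile, knockout 3 and wild type 5, r was 0.944 to 0.982, and over the 7 libraries other than knockout 2, 3 and 5 it was 0.925 to 0.970. Syn2, a second synapsin, had 14.8 CPM in knockout and 20.6 CPM in wild type. Kif5c, a neuronal kinesin, had 69.8 CPM in knockout and 94.5 CPM in wild type. Cntn2, an axonal adhesion protein gene, had 16.3 CPM in knockout and 25.3 CPM in wild type.

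Most other genes of the release machinery also had lower levels in knockout libraries. Of 56 listed genes 54 were tested, and none was called in either direction by edgeR. Their median log2 fold change was -0.46 with 46 of 54 below 0, beside -0.50 and 7 of 9 for the members, and -0.01 and 51.7% for all tested genes. At an unadjusted p under 0.05 in edgeR's fit 20 were lower and 3 higher, beside 8.66% and 11.4% of all tested genes. DESeq2 called 1 lower and 1 higher, beside 0.814% and 1.21% of all genes. Voom with quality weights called 38 lower and 3 higher, beside 20.5% and 18.6%. Without knockout 2, 3 and 5 the median was -0.08 with 37 of 54 below 0, and adding the first component to the model gave -0.14.

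By smallest p the list gave Sv2a, a vesicle glycoprotein gene, with 53.2 ± 16.6 CPM in knockout and 88.3 ± 17.4 CPM in wild type (SD, n = 5 each). In edgeR's fit the log2 difference was -0.73 (SE 0.206, adjusted p = 0.210), with -0.32 without knockout 2, 3 and 5. Rab3b, a small GTPase gene of vesicle docking, was on the other side, with 3.92 ± 1.45 CPM in knockout and 2.01 ± 0.445 CPM in wild type. Knockout over wild type came to 0.97 on the log2 scale (SE 0.274, adjusted p = 0.210, edgeR) and 0.96 without knockout 2, 3 and 5. Chosen after their values were seen, the complexin gene Cplx1 had a log2 fold change of -0.44, and Napb, the neuronal homologue of Napa, had -0.96. Napa, the widely used SNARE-recycling adaptor gene, had 0.35, with 218 CPM in knockout and 172 CPM in wild type.

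SNARE genes that other cells use had no shared direction. Of 18 listed genes 17 were tested, 7 of them below 0, with a median of 0.02 and none called by edgeR or DESeq2. At an unadjusted p under 0.05 in edgeR 0 were lower and 2 higher, beside 8.66% and 11.4% of all tested genes. Voom with quality weights called 2 lower and 4 higher, beside 20.5% and 18.6%. Vamp7 was listed at 0 in every library. Stx5a (Golgi syntaxin) had 0.40 and Stx4a (plasma membrane syntaxin) 0.56, against 0.10 and -0.01 without knockout 2, 3 and 5. Transmitter genes of other neurons were near the limit of detection. Of 12 such genes 6 were tested, Chat was at 0 in every library and 5 of 12 stayed under 10 counts in every library. Slc17a8, the carrier of the hair cell synapse, had 5.51 CPM in knockout and 5.997 CPM in wild type, with a log2 fold change of -0.12, and none of the 6 was called by edgeR or DESeq2 or had an unadjusted p under 0.05 in edgeR. Voom with quality weights called 1 of the 6 lower and none higher. Gad1 (GABA synthesis) had a log2 fold change of 0.41, which changed sign to -0.16 without knockout 2, 3 and 5.

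**Figure D4:**
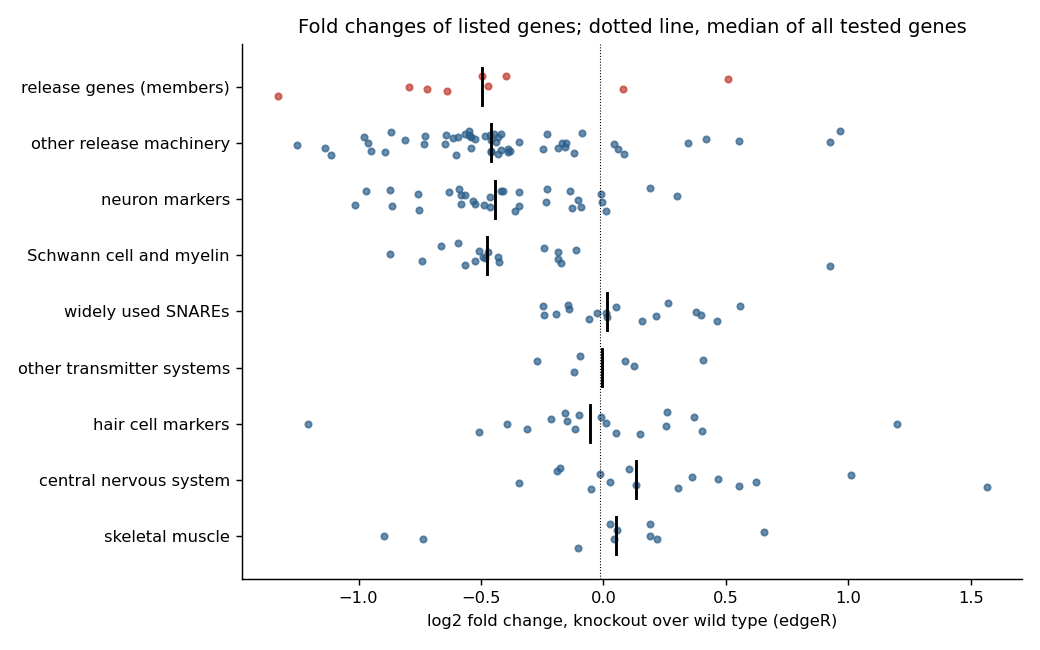
Log2 fold changes (x axis, knockout over wild type, edgeR) of the tested genes on each list, 1 point a gene, with the list's median as a black bar. The 9 members, the other release machinery, neuron markers and Schwann cell and myelin markers have medians between -0.50 and -0.44, and the other lists between -0.06 and 0.13.

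Markers of neurons and of their glia also had lower levels in knockout libraries. The 32 neuron markers outside the release machinery summed to 2061 to 3848 CPM in knockout libraries and 3360 to 4745 CPM in wild-type libraries. Their median log2 fold change was -0.44 with 29 of 32 below 0, and -0.13 without knockout 2, 3 and 5. None was called by edgeR or DESeq2, and at an unadjusted p under 0.05 in edgeR 8 were lower and none higher, beside 8.66% and 11.4% of all tested genes. Voom with quality weights called 20 lower and none higher, beside 20.5% and 18.6%. The potassium channel genes Kcnc1 (-0.97, and -0.39 without knockout 2, 3 and 5) and Kcna2 (-0.86, and -0.29 without them) had the smallest p. The 18 Schwann cell, satellite glia and myelin markers summed to 10784 to 14353 CPM in knockout libraries and 16692 to 21322 CPM in wild-type libraries, ranges that did not overlap. Their median was -0.48 with 17 of 18 below 0, and -0.26 without knockout 2, 3 and 5. None was called by edgeR, where 11 were lower and 1 higher at an unadjusted p under 0.05, again beside 8.66% and 11.4% of all genes. DESeq2 called 5 lower and 1 higher, beside 0.814% and 1.21%, and voom with quality weights called 12 lower and 1 higher, beside 20.5% and 18.6%. After correction for length and GC edgeR called 1 lower. The myelin genes Ncmap (-0.66) and Pmp22 (-0.57) had the smallest p. No neuron, glia or hair cell marker was at 0 in every library. Their part in the levels of the release genes was not tested.

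**Figure D5:**
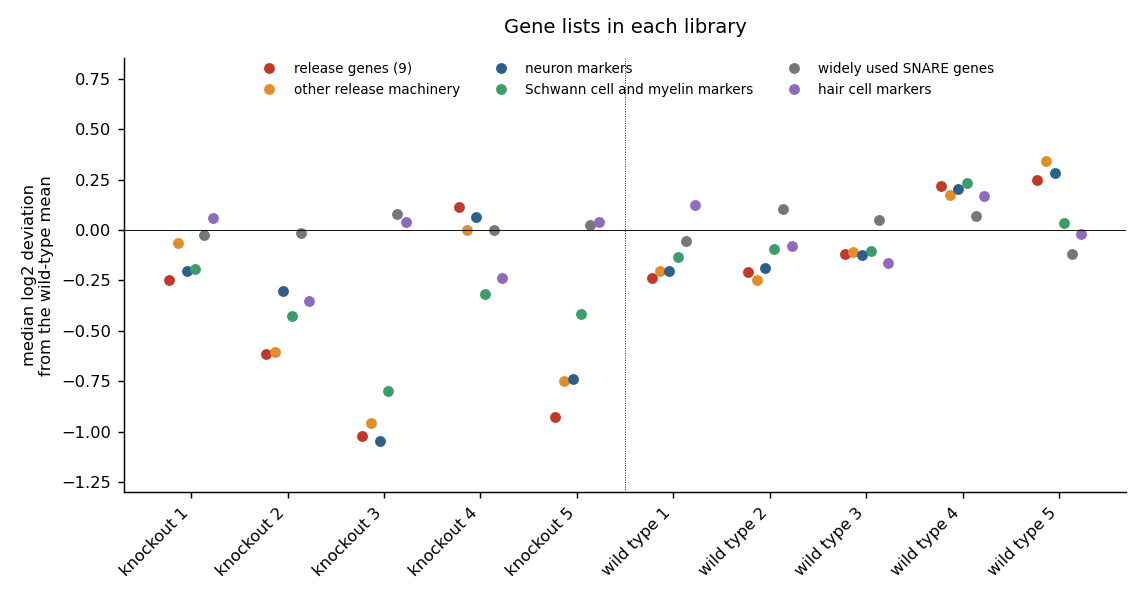
Median log2 deviation of each list from its genes' wild-type means (y axis), in each library (x axis). The 9 release genes had medians of -0.61, -1.02 and -0.93 in knockout 2, 3 and 5, and neuron markers -0.30, -1.05 and -0.74, while widely used SNARE genes stayed between -0.12 and 0.10 in all 10 libraries.

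To set each release gene against the neuron markers, the median log2 deviation of those 32 genes from their wild-type means was subtracted in each library. That median was -0.20, -0.30, -1.05, 0.07 and -0.74 in knockout 1 to 5. The subtraction by itself therefore raised genes that did not follow the neuron markers, in every knockout library but knockout 4. Snap25 was then at -0.58 to -0.27 in knockout libraries and at -0.06 to 0.14 in wild-type libraries, so on this scale all 5 knockout libraries lay below all wild-type libraries, where 0.194% of tested genes did. In CPM, knockout 4 lay inside the wild-type range. Stx1a was at 0.35 to 1.40 in knockout libraries and at -0.09 to 0.10 in wild-type libraries, above in all 5, where 1.72% of tested genes were. The subtraction moves these shares too, which in CPM were 1.21% below and 1.15% above. They therefore do not show how rare such a separation is among neuronal genes, which was not tested. The other 7 genes overlapped between the groups on this scale. Syn1 was at -0.19 to 0.18 in knockout libraries and at -0.24 to 0.24 in wild-type libraries, and Slc17a7 averaged -0.04 ± 0.251 in knockout and 0.01 ± 0.126 in wild type (SD, n = 5 each). Vamp2 averaged 0.52 ± 0.395 in knockout and 0.01 ± 0.120 in wild type, with 4 knockout libraries above the wild-type range. Slc17a6 averaged -0.42 ± 0.373 in knockout and 0.01 ± 0.0885 in wild type, with 4 knockout libraries below the wild-type range.

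Markers of 3 other kinds of cell were also measured. The 19 hair cell markers summed to 501 to 659 CPM in knockout libraries and 525 to 641 CPM in wild-type libraries. Of 18 tested 10 were below 0, with a median of -0.06. None was called by edgeR or DESeq2, and 1 was higher and none lower at an unadjusted p under 0.05 in edgeR, beside 11.4% and 8.66% of all tested genes. Voom with quality weights called 2 higher and 1 lower, beside 18.6% and 20.5%. Otof, the calcium sensor gene of hair cell release, had 35.4 CPM in knockout and 34.1 CPM in wild type, and the smallest p fell to the transcription factor gene Barhl1 (1.20) and to Ocm (0.37, and -0.21 without knockout 2, 3 and 5), a calcium buffer gene of outer hair cells. Central nervous system markers summed to 568 to 865 CPM in knockout libraries and 587 to 791 CPM in wild-type libraries, with 5 of 15 below 0 and a median of 0.13. The median was 0.35 without knockout 2, 3 and 5 (4 of 16 below 0), 0.35 given the first component and 0.40 with the trend in length and GC removed. Of the list, 3 of 20, the neuronal genes Gabra6, Neurod6 and Pcp2, were under 10 counts in every library. Cspg4 had a log2 fold change of 0.36, and Cbln1 had 1.01, or 0.47 without knockout 2, 3 and 5. None of the 15 was called by edgeR or DESeq2, and 6 were higher and none lower at an unadjusted p under 0.05 in edgeR, beside 11.4% and 8.66% of all tested genes. Voom with quality weights called 4 of the 15 higher and 2 lower, beside the same shares of all genes as above. Skeletal muscle markers summed to 39.3 to 52.8 CPM in knockout libraries and 38.2 to 50.4 CPM in wild-type libraries. Of 10 tested 3 were below 0, with a median of 0.05, and without knockout 2, 3 and 5 it was -0.22 (8 of 11 below 0). Myh8 had -0.74 (-0.28 without these libraries) and Neb -0.90 (-0.22 given the first component), the smallest p of the list. None of the 10 was called by edgeR or DESeq2, and 1 was lower and none higher at an unadjusted p under 0.05 in edgeR, beside 8.66% and 11.4% of all tested genes. Voom with quality weights called 1 lower and 1 higher, beside 20.5% and 18.6%.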

How the data were processed

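Raw counts per Entrez gene were deposited for 10 libraries. Per the submitters' processing notes HISAT2, featureCounts, limma and the build mm10 were used, without versions or roles; the sources used here give no annotation, strand setting or filters, so reads of overlapping genes cannot be assigned to a strand. Symbols and positions came from RefSeq (GRCm38.p6), which matched 25275 of 27179 IDs, and transcript lengths and GC content from GENCODE M21. The main fit was edgeR 4.0.16 (R 4.3.3) with the quasi-likelihood test on all 10 libraries, group as the only term, TMM scaling and filterByExpr (minimum count 10, minimum total 15). This left 16018 genes, all 9 members among them, with Benjamini-Hochberg adjustment over all of them and calls at an adjusted p under 0.05. SE was taken as |log2 fold change| over the root of F. The fit was tested on simulated data. Log2 CPM used a prior count of 2, and ratios used counts plus 1.

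Libraries were grouped by their titles. Named were the members, Pknox2, the ratio partners, and from each list up to 4 called genes or the 2 with the smallest p, plus the 8 genes most like the members; 1 ratio and some genes so chosen are not reported here. Alternatives were relative log expression scaling, other filters on low counts, DESeq2 1.42.0, limma-voom (limma 3.58.1) with and without quality weights, a replicate block, the first component or Y-linked expression as a covariate, and the removal of libraries. A correction of every library for its dependence on length and GC (splines, used as an offset) was added after the data were seen. The members, lists, ratios and libraries to leave out were chosen with earlier results of these data known.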

Additional observations from a re-analysis of the deposited data

How the results depend on the processing

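No member was called by limma-voom without quality weights. edgeR called no member under either filter, relative log expression scaling, the replicate block or either covariate. It also called none with the length and GC trend removed or after any removal of libraries. At an unadjusted p under 0.05 in the main fit 5 members were lower and 1 higher. DESeq2 called 2 members and limma-voom with sample quality weights 8. Among all genes 3 were called, against 323 by DESeq2, 6259 with quality weights, 13 with the length and GC trend removed, 1 with the replicate block, 1 with the first component, 1 without knockout 2, 3 and 5, 0 after adding Y-linked expression to the model (134 higher and 159 lower at an unadjusted p under 0.05 by edgeR) and 1 to 166 on leaving out 1 library, 166 being without knockout 1. Y-linked expression nearly followed the group, so the lack of calls in that fit does not measure the part of sex. Of 189 alternative values for members' fold changes 177 kept direction and call, 10 became calls and 2 changed sign, both for Vamp2 (0.08 in the main fit, -0.07138 with Y-linked expression, -0.0007213 with the length and GC trend removed). The main fit called no member, so no call could be lost, and this tally does not weigh size. Without knockout 2, 3 and 5 every member's value shrank, Syn1 from -0.3977 to -0.01487, Syt1 from -0.4951 to -0.03606 and Syt2 from -1.329 to -0.2912.

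The replicate numbers did not pair the libraries: deviations of same-numbered libraries correlated from -0.383 to 0.510, and 1 of 5 knockout libraries was most like its own number. With the replicate block (exact sign-flip test, whose smallest p with 5 pairs cannot pass) the ratio differences stayed at -0.7316 for Vamp1 to Vamp2 and -0.7016 for Snap25 to Snap23, each at adjusted p = 0.0781. Without knockout 2, 3 and 5 they were -0.4271 and -0.4137 (adjusted p = 0.238 and 0.357, exact test), where 2 against 5 libraries allow no exact p under 0.0476 before adjustment, so the lost calls say nothing of stability. When single libraries were left out they ran from -0.8184 to -0.6358 and from -0.8274 to -0.5419, with Syt2 to Syt1 from -1.768 to -0.9635 and Slc17a7 to Slc17a6 from 0.2386 to 0.5701. Adding 0.5 to counts ended no call. The cause of these changes was not tested. Depth limits Syt2 most, at 48 counts in its lowest library.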
